A study of Mus musculus with 8 samples.

Results

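The genes described here are named for the proteins of the mitochondrial ribosome and the mitochondrial aminoacyl-tRNA synthetases. They were taken by symbol from the protein-coding genes of the RefSeq annotation on GRCm38, which gave 95 genes. Symbols beginning with Mrpl are called large subunit genes (49), those beginning with Mrps small subunit genes (29) and those ending with ars2 synthetases (17). These groups follow the symbol alone. A symbol need not match the subunit that holds the protein, or mean that the protein is ribosomal, and this was not checked. Of the 59906 regions in a table of ATAC-seq counts, 161 lay inside these genes or within 1 kb of their ends, at 94 of the 95 genes; Mrpl43 had none. Regions within 1 kb of either end of a gene model are called promoter-like (104 regions, 88 genes) and all others inside a gene are called internal (57 regions, 26 genes), with a region of several genes counted once. ATAC-seq uses a transposase to insert adapters into accessible DNA. It was run on cDC1, the conventional dendritic cells specialised in presenting antigen to CD8 T cells, purified from mouse spleen. There were 4 libraries of genotype WT and 4 of genotype OPA1-deficient (labelled OPA1KO), the latter from CD11c-Cre;OPA1 flox mice. The CD11c (Itgax) promoter of that Cre is active in other CD11c-expressing cells too. The labels do not say whether the WT mice carried Cre or the flox alleles, how old the mice were, or whether each library came from its own animal. The p-values therefore measure the spread between libraries, which may be technical.

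Mitochondria make a small set of respiratory chain subunits from their own DNA, on ribosomes of their own. All of the proteins of those ribosomes and all of the synthetases that charge mitochondrial tRNAs are encoded in the nucleus, translated in the cytosol and imported. The synthetases whose gene also serves the cytosol do not carry the ars2 ending and are not among the members. OPA1 is a GTPase that fuses the inner mitochondrial membrane and shapes its cristae. The comparison was of accessibility at these nuclear genes between WT and OPA1KO cDC1.

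Many of the promoter-like regions lay at the ends of more than one gene. Of the 88 member genes with such a region, 45 (51.1%) shared at least 1 with another protein-coding gene, compared with 3417 of 12047 genes overall (28.4%). The share was 57.8% for large subunit genes, 39.3% for small subunit genes and 53.3% for synthetases. Nuclear genes of the respiratory complexes were at 52.4% and cytosolic ribosomal protein genes at 28.2%. In 2 regions both genes were members. Mrps12, whose product sits at the decoding centre of the small subunit, faces Sars2, the seryl-tRNA synthetase gene, and Mrpl46 of the large subunit faces Mrps11 of the small subunit. Other partners included Ndufb5 beside Mrpl47 and Ndufs6 beside Mrpl36 (both complex I), Fau beside Mrpl49 (a cytosolic ribosomal protein) and Hars, the cytosolic histidyl-tRNA synthetase gene, beside Hars2.

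The sequences between 4 of these start sites and the neighbouring gene are given because they carry the shared promoters discussed below, namely both member pairs and 2 of the promoter-like regions among the 6 with the smallest p in their direction. They come from RefSeq on GRCm38.p6, run 5′ to 3′ on the strand of the named gene up to the base before its start, and hold only bases outside every gene model. Capitals mark matches on either strand to the CCAAT box (its name gives its letters), to the GC box, spelled GGGCGG, or to the ETS core of factors such as GABPA, spelled CCGGAAG.
Mrps12 to Sars2 (chr7:28741822-28741956, minus strand): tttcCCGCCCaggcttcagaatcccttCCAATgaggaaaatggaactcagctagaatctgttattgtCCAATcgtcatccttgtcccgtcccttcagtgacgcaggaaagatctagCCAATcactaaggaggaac
Mrps11 to Mrpl46 (chr7:78783090-78783130, plus strand): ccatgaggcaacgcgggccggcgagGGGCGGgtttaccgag
Mrpl50 to Zfp189 (chr4:49521084-49521175, minus strand): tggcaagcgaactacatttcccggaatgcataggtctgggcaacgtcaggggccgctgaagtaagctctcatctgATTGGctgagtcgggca
Mrpl51 to Ncapd2 (chr6:125192101-125192199, plus strand): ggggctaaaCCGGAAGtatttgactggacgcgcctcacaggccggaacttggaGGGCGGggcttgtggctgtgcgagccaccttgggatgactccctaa

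The stretch between Mrps12 and Sars2 held 3 CCAAT boxes in 135 bases. That between Mrps11 and Mrpl46 was 41 bases long and held 1 GC box. Promoter sequences (250 bases before and 50 after a start) were found for 83 of the 95 genes, as 90 promoters, of which 87 overlapped a region of the table. Among those 87, 33.3% held CCGGAAG, 23.0% held GCGCANGCG (the core of the motif of NRF1, a regulator of nuclear genes for mitochondria) and 18.4% held AANATGGCG (the YY1 core), with N for any base and both strands searched. Among the 10663 promoters of all protein-coding genes that overlapped a region, the shares were 19.7%, 15.2% and 5.57%. GGGCGG was in 55.2% of member promoters against 68.4% of all, CCAAT in 40.2% against 38.6% and TGACGTCA (the cyclic AMP response element) in 2.30% against 3.48%. Matches of one motif may overlap those of another, and a match describes the letters only. The 19 promoter-like member regions over a promoter with the NRF1 core had a median log2 fold change of −0.06, and the 53 over a promoter without it −0.03. For the ETS core these medians were −0.02 (24 regions) and −0.04 (48 regions), for the YY1 core −0.02 (14) and −0.03 (58), and for the CCAAT box −0.04 (29) and −0.03 (43). With the GC box the median was −0.06 (31 of 41 regions lower) and without it 0.00 (14 of 31 lower). The cyclic AMP response element was at 2 regions, with a median of 0.11 against −0.03 at the other 70. These differences were not tested.

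Counts in regions totalled 4660826 to 7590578 per library, and promoter-like regions of all genes took 52.3% to 52.9% of them in WT and 51.2% to 52.5% in OPA1KO libraries. Pairs of libraries of a group differed by more than sampling noise if each count is independent (chi-square per degree of freedom 2.16 to 4.75). Whether both ends of a read pair were counted, which would raise that value, is not known. Levels are CPM (counts relative to library size) scaled with TMM factors, which set libraries to a common depth, and fold changes are log2 of OPA1KO over WT ± standard error, from edgeR's quasi-likelihood test over all 59247 tested regions. All 161 member regions were tested. Opa1 had 1 region, at an end of its gene model (34.6 to 43.0 CPM in OPA1KO and 37.9 to 47.0 CPM in WT libraries), which does not show whether the flox alleles were recombined. Regions at the ends of 11 of 12 cDC1 marker genes were present, Itgae being the exception, and summed to 402 to 427 CPM in the WT group and 380 to 412 CPM in OPA1KO libraries. Markers of other cells were present too, some lists in full and others in part. The T and NK cell markers Cd3e, Cd3g, Cd8b1, Thy1, Ncr1 and Klrb1c had no region at an end, while Cd4 and Tcf7 had one, together at 8.02 to 10.2 CPM in WT libraries and 8.37 to 12.2 CPM in OPA1KO libraries. Of the B cell genes, Cd79b and Pax5 had none, while Cd79a, Ms4a1 and Ebf1 summed to 39.1 to 49.6 CPM and 36.6 to 45.5 CPM in the same order. The neutrophil genes S100a8 and S100a9 summed to 57.7 to 121 CPM and 63.2 to 110 CPM, with Ly6g, Elane and Mpo lacking a region. All 10 monocyte and macrophage genes had one, summing to 159 to 195 CPM in the WT group and 151 to 174 CPM in OPA1KO libraries. All 5 genes of cDC2, another class of conventional dendritic cell, had one (104 to 132 CPM and 109 to 133 CPM). Itgam at its strongest region averaged 14.4 CPM in WT and 23.5 CPM in OPA1KO libraries. Its log2 fold change was 0.71 (edgeR adjusted p = 0.155), and the other cDC2 genes gave −0.16 to −0.03. The plasmacytoid dendritic cell genes Siglech, Bst2 and Tcf4 summed to 82.1 to 87.5 CPM and 76.7 to 89.1 CPM, with Ly6d and Ccr9 lacking a region. Coordinates are as in the table, on GRCm38.

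Promoter-like regions of the member genes had levels that varied widely from gene to gene in both genotypes. Per kb of region, the mean over all 8 libraries ran from 13.2 to 340 CPM with a median of 55.3, against a median of 44.7 over all promoter-like regions. Large subunit genes had a median of 55.0, small subunit genes 51.7 and synthetases 69.9 CPM per kb. The highest level was at Mrps14, a small subunit gene (340 CPM per kb, chromosome 1, 160194829 to 160195396), followed by the large subunit genes Mrpl17 (290), Mrpl34 (237) and Mrpl41 (217) and the small subunit gene Mrps18b (212). At Mrps14 the WT libraries were at 186, 208, 184 and 203 CPM and the OPA1KO libraries at 189, 188, 197 and 187 CPM. The OPA1KO values lay within the WT range (log2 fold change −0.04 ± 0.07), and these 5 strongest regions had fold changes from −0.05 to 0.04. The lowest levels were at regions far from the annotated start of Mrpl21 (13.2) and Mrps23 (15.1) and at 1 region of Mrps34 (15.7). Of the 104 promoter-like regions, 78 lay within 1 kb of an annotated start, with a median of 63.6 CPM per kb, and the other 26 had a median of 40.1. For 6 genes (Aars2, Mrpl18, Mrpl24, Mrpl4, Mrps2 and Tars2) all regions were classed as internal, and 10 internal regions in all lay within 1 kb of an annotated start that falls inside a longer gene model. Their median was 41.6 CPM per kb, against 17.1 for the other 47 internal regions.

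**Figure D1:**
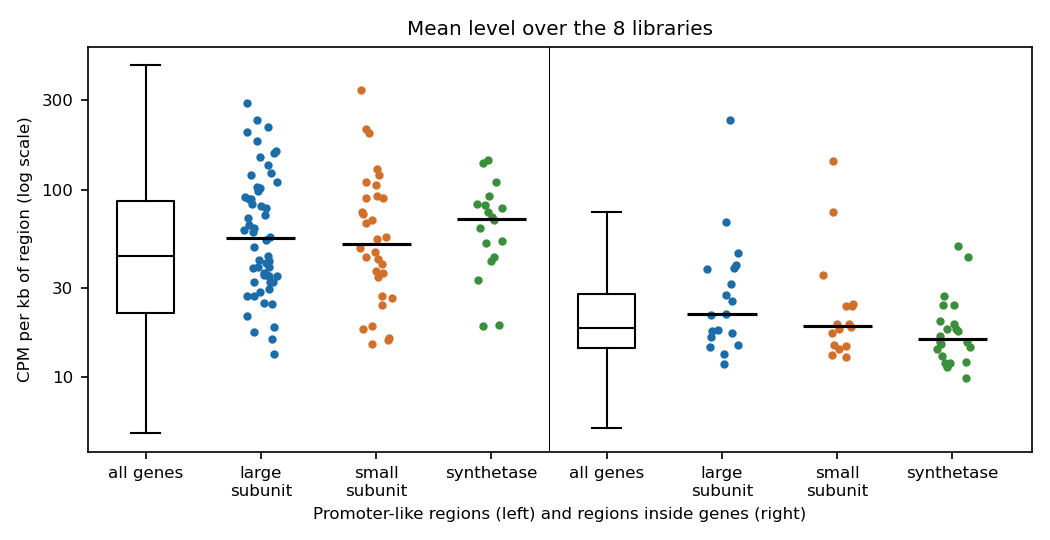
Mean level over the 8 libraries in CPM per kb of region (log axis) for promoter-like regions (left) and regions inside genes (right). Boxes show all genes (median, quartiles, whiskers to at most 1.5 times the box height on the log scale, points beyond them not drawn), points are member regions and black bars their medians; promoter-like medians were 55.0 for large subunit genes, 51.7 for small subunit genes and 69.9 for synthetases, against 44.7 for all genes.

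At promoter-like regions no member passed the test for a difference between WT and OPA1KO cells. The median log2 fold change was −0.03, with 62 of 104 regions lower and 42 higher, and the median over all 13254 tested promoter-like regions was also −0.03, with 59.9% lower. At an adjusted p of 0.05, 0 of the 104 were called by edgeR, against 0.00754% of all promoter-like regions, and DESeq2 and limma-voom also called 0. At an unadjusted p under 0.05, 1 member region was lower and 1 higher, where 3.21% of all promoter-like regions were lower and 1.06% higher. In 0 of the 104 did all OPA1KO libraries lie below all WT libraries, and in 2 they lay above, against 2.26% and 0.981% of all promoter-like regions. Fold changes ran from −0.40 to 0.68, with a median standard error of 0.13. Medians were −0.03 for the large subunit (33 of 56 lower), −0.03 for the small subunit (19 of 32 lower) and −0.06 for synthetases (12 of 18 lower). Summed over the member regions, levels were 4291 to 4719 CPM in the WT group and 4228 to 4549 CPM in OPA1KO libraries, so the groups overlapped.

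**Figure D2:**
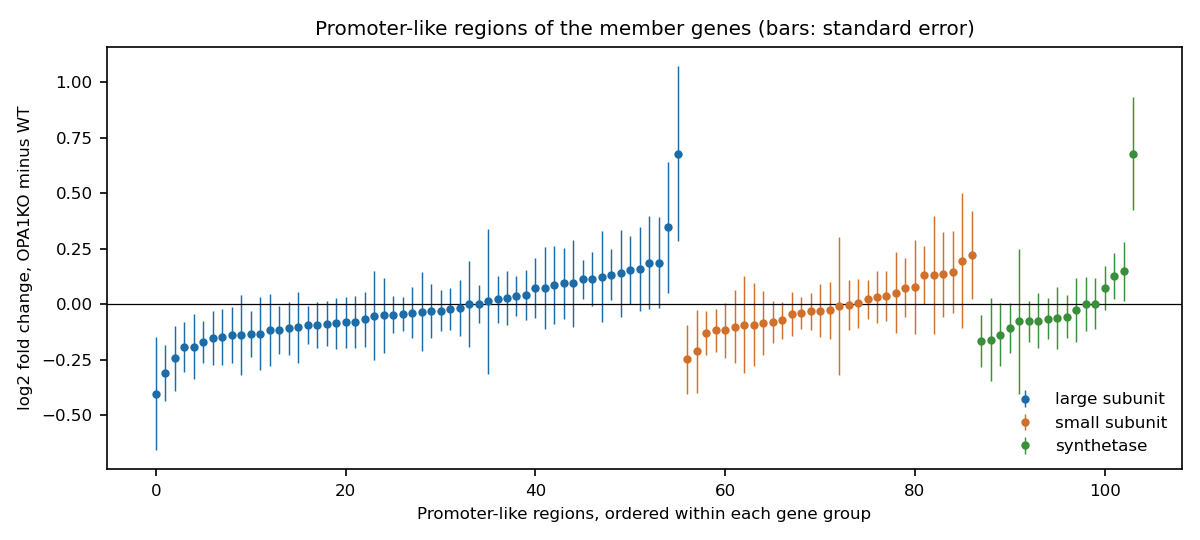
Log2 fold change (OPA1KO minus WT) with its standard error for each of the 104 promoter-like regions, ordered by value within large subunit, small subunit and synthetase genes; the 2 regions of a pair of members are drawn with the first of their groups. Values ran from −0.40 to 0.68, and none passed the test.

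Among large subunit genes, the region shared by Mrpl46 and Mrps11 had the smallest p of those with lower values (chromosome 7, 78782855 to 78783426). It was at 38.0, 35.9, 30.8 and 36.3 CPM in the WT group and 26.1, 31.0, 30.2 and 26.8 CPM in OPA1KO libraries. The groups overlapped only through WT replicate 3 and OPA1KO replicate 2 (log2 fold change −0.31 ± 0.13, edgeR adjusted p = 0.689). The region between Mrpl50 and the zinc finger gene Zfp189 was at 83.5, 77.2, 76.6 and 81.7 CPM in the WT group and 64.1, 68.8, 70.4 and 80.6 CPM in OPA1KO libraries (−0.17 ± 0.09, edgeR adjusted p = 0.821). There, OPA1KO replicate 4 lay inside the WT range and the other 3 below it. At the upstream end of the Mrpl36 gene model, the region it shares with Ndufs6 gave −0.19 ± 0.11. Mrpl23 gave −0.24 ± 0.15 and a weak region of Mrpl33 −0.40 ± 0.25, at 7.73 ± 1.62 and 5.80 ± 2.02 CPM (mean ± SD, n = 4 per group).

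Values in the other direction were found at Mrpl51, where the region shared with the condensin gene Ncapd2 was at 75.8, 79.4, 77.3 and 78.2 CPM in the WT group and 80.2, 85.3, 89.0 and 81.6 CPM in OPA1KO libraries (chromosome 6, 125191485 to 125192310). All OPA1KO libraries lay above all WT libraries, by a small margin (log2 fold change 0.11 ± 0.09, edgeR adjusted p = 0.882). Mrpl10, whose product anchors the stalk of the large subunit, gave 0.13 ± 0.12. Weak regions of Mrpl21 and Mrpl55 gave 0.68 ± 0.39 and 0.35 ± 0.29, at mean levels of 2.57 and 4.62 CPM. At the starts of genes for the stalk that recruits translation factors, Mrpl12 gave 0.07 ± 0.13 and Mrpl11 gave 0.09 ± 0.16. Mrpl3, near the peptidyl transferase centre, was at 11.8 ± 1.71 CPM in the WT group and 11.4 ± 2.66 CPM in OPA1KO libraries (−0.05 ± 0.20).

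Small subunit genes gave promoter-like fold changes from −0.31 to 0.22. The region shared by Mrps12 and Sars2 was at 69.8, 77.5, 71.6 and 66.4 CPM in the WT group and 60.8, 65.5, 74.1 and 69.9 CPM in OPA1KO libraries (chromosome 7, 28741655 to 28742409). The groups overlapped over most of their range (log2 fold change −0.08 ± 0.10). Mrps35 gave −0.25 ± 0.16 and Mrps22 −0.10 ± 0.17. Mrps34 had 2 regions, at 15.7 and 26.5 CPM per kb, which gave 0.22 ± 0.20 and 0.08 ± 0.21. None of these passed the test.

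At the ends of synthetase genes no region passed the test. Lars2 (leucyl) was at 26.9 ± 2.39 CPM in the WT group and 29.9 ± 2.84 CPM in OPA1KO libraries (log2 fold change 0.15 ± 0.13). Aars2 (alanyl) had its strongest region 117 bp past an annotated start and inside its model, at 26.8 ± 4.68 and 28.7 ± 2.09 CPM (0.10 ± 0.14). Ears2 (glutamyl) had the smallest p of the promoter-like regions with higher values, at a weak region near its far end, 32580 bp past the start (chromosome 7, 122034351 to 122034660). That region was at 5.33, 3.43, 4.22 and 5.03 CPM in the WT group and 9.25, 5.99, 6.04 and 7.55 CPM in OPA1KO libraries. All OPA1KO libraries lay above all WT libraries, but the threshold was not reached (0.68 ± 0.25, edgeR adjusted p = 0.623). The start of Ears2, which it shares with Ubfd1, gave 0.13 ± 0.10.

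Rars2, the arginyl-tRNA synthetase gene, held the only member region that passed the test. It lies inside the gene, 28275 bp past the annotated start (chromosome 4, 34642912 to 34643552, in a gene model from 34614957 to 34660167), and no other gene model of any kind overlaps it. Whether it is exonic or intronic was not analysed here. Per kb of region, its mean over the 8 libraries was 9.83 CPM, the lowest of the 57 internal member regions (median 18.1). The WT libraries were at 9.59, 6.24, 13.3 and 9.33 CPM and the OPA1KO libraries at 2.14, 4.35, 3.09 and 2.30 CPM, from 63, 40, 63 and 52 counts and from 15, 24, 23 and 14 counts. All OPA1KO libraries lay below all WT libraries, and the level fell from 9.61 ± 2.89 to 2.97 ± 1.01 CPM (n = 4 each, log2 fold change −1.69 ± 0.28, edgeR adjusted p = 0.0154). In such bulk counts, fewer cells with the region open and less access per cell cannot be told apart.

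At the start of Rars2 no difference was detected. The promoter-like region over the facing starts of Rars2 and Orc3, an origin recognition complex gene, was at 47.9, 44.0, 62.7 and 54.2 CPM in the WT group and 50.8, 55.3, 46.0 and 56.8 CPM in OPA1KO libraries (chromosome 4, 34614687 to 34615165). The OPA1KO range lay within the WT range (log2 fold change 0.00 ± 0.11, edgeR adjusted p = 0.999). The difference between the start and the internal region was not itself tested. The next region beyond the gene, at the ends of Slc35a1 and Cfap206 (34686997 to 34687584), gave −0.29 ± 0.10 (edgeR adjusted p = 0.599). The call of the internal region was lost without WT replicate 3 (edgeR adjusted p = 0.208), without WT replicate 4 (0.0965), without OPA1KO replicate 1 (0.129) and without OPA1KO replicate 3 (0.114), and with limma-voom (0.121), while its fold change ran from −1.91 to −1.50 over the 8 fits that left out 1 library. Of the 10 monocyte and macrophage marker genes 8 had lower and 2 higher values in OPA1KO libraries, where 59.9% of all promoter-like regions were lower. Values ran from −0.87 at C1qb to 0.20 at Adgre1, and those counted as lower include Csf1r (−0.04) and Cd68 (−0.00084). Of their 13 regions 0 were called, and the summed ranges given above overlapped. The part of such cells in the Rars2 result was not tested.

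**Figure D3:**
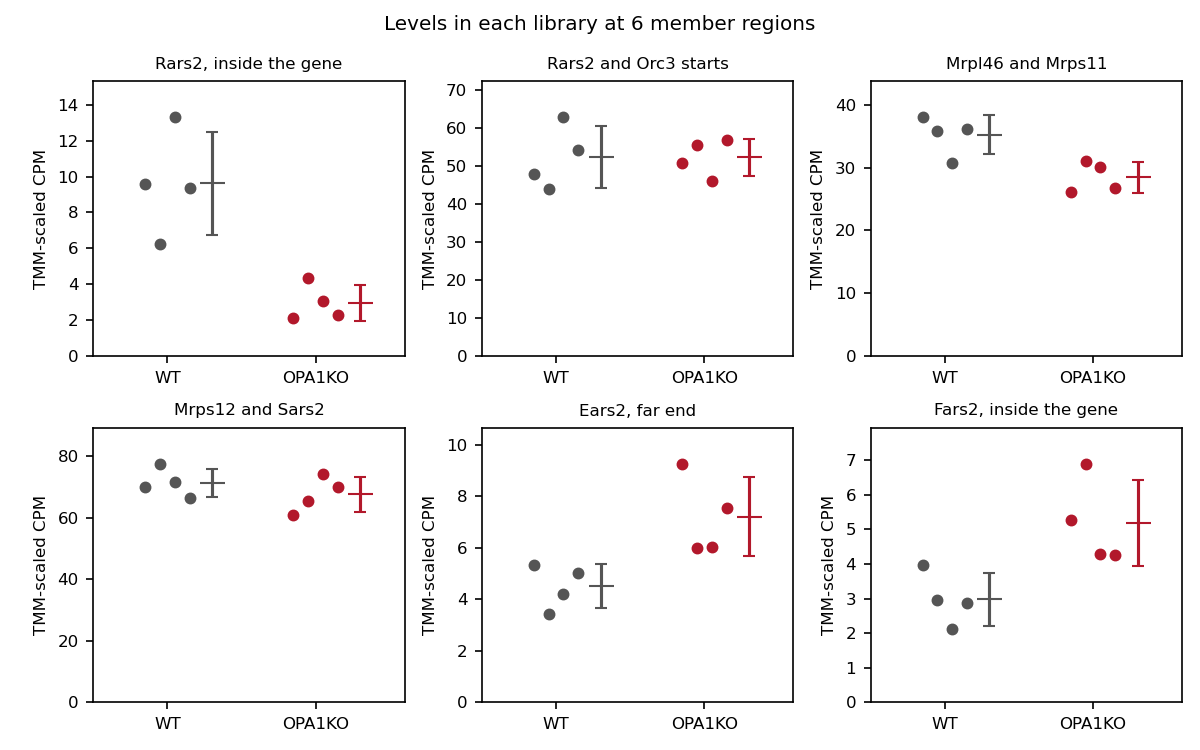
TMM-scaled CPM in each library (points) with the group mean and SD (bars) at 6 member regions; each panel starts at 0 and has its own scale. The groups are apart at the internal Rars2 region (6.24 to 13.3 against 2.14 to 4.35 CPM) and overlap at the shared start of Rars2 and Orc3. They are also apart, with OPA1KO above WT, at the far end of Ears2 and inside Fars2, where the test was not passed.

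Of the 57 internal member regions 39 had higher and 18 lower values in OPA1KO libraries. Their median log2 fold change was 0.08, and over all 25130 internal regions the median was 0.01, with 48.4% lower. Of the 57, 1 was called (Rars2), against 0.0199% of all internal regions and 0.0203% of all tested regions. At an unadjusted p under 0.05, 1 was lower and 2 higher, where 3.54% and 3.47% of all internal regions were. The groups did not overlap in 3 that were lower and 1 that was higher, against 2.11% and 2.04% of all internal regions. Most of these regions were weak, with a median of 5.85 CPM and a median standard error of 0.28. The 26 with a mean under 5 CPM had a median of 0.15 (20 higher), and all internal regions at that level 0.05. The 14 between 5 and 10 CPM had a median of 0.04 (7 higher, 7 lower), and all internal regions at that level 0.01. The 17 over 10 CPM had a median of 0.06 (12 higher), and all internal regions at that level −0.02. Leaving out 1 library kept the median of the 57 between 0.06 and 0.11 and the number higher between 33 and 41. Summed over the 57, levels were 674 to 727 CPM in the WT group and 688 to 748 CPM in OPA1KO libraries. The median log2 deviation from the mean of each region ran from −0.12 to 0.03 in WT and −0.004 to 0.09 in OPA1KO libraries. By both measures the groups overlapped.

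Among internal regions with higher values, one in Fars2, the phenylalanyl-tRNA synthetase gene, lay 105287 bp past the start (chromosome 13, 36222772 to 36223088). It was at 3.96, 2.96, 2.11 and 2.87 CPM in the WT group and 5.27, 6.89, 4.29 and 4.27 CPM in OPA1KO libraries. All OPA1KO libraries lay above all WT libraries, but the threshold was not reached (log2 fold change 0.77 ± 0.30, edgeR adjusted p = 0.652). Fars2 is a long gene of 420168 bp and had the most regions of any member, 1 at its start and 9 inside. The 9 gave fold changes from −0.08 to 0.77, 7 of them above 0, and its start gave −0.06 ± 0.10. Mrpl1 of the large subunit had 4 internal regions, all above 0, of which 2 were among those with the smallest p (0.76 ± 0.33 and 0.55 ± 0.31), and its start gave −0.08 ± 0.12. Nars2 (asparaginyl) had 6 internal regions, from −0.55 to 0.59, and Mrps27 5, from −0.27 to 0.38. The strongest of the Mrps27 regions, 8533 bp past the start, was more open than the start itself (143 against 109 CPM per kb) and gave 0.05 ± 0.10. The lower values with the smallest p after Rars2 were inside Mrps15 (−0.54 ± 0.29) and at an internal start of Mrpl48 (−0.31 ± 0.18). At Mrpl48 the WT libraries were at 14.8, 13.1, 13.5 and 13.3 CPM and the OPA1KO libraries at 12.4, 10.2, 11.7 and 9.68 CPM, with all OPA1KO libraries below all WT libraries (edgeR adjusted p = 0.826). The third internal region with that order was in Mrpl13, at 6.69, 6.55, 6.76 and 6.82 CPM in the WT group and 5.69, 5.80, 5.64 and 4.92 CPM in OPA1KO libraries (−0.28 ± 0.23).

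**Figure D4:**
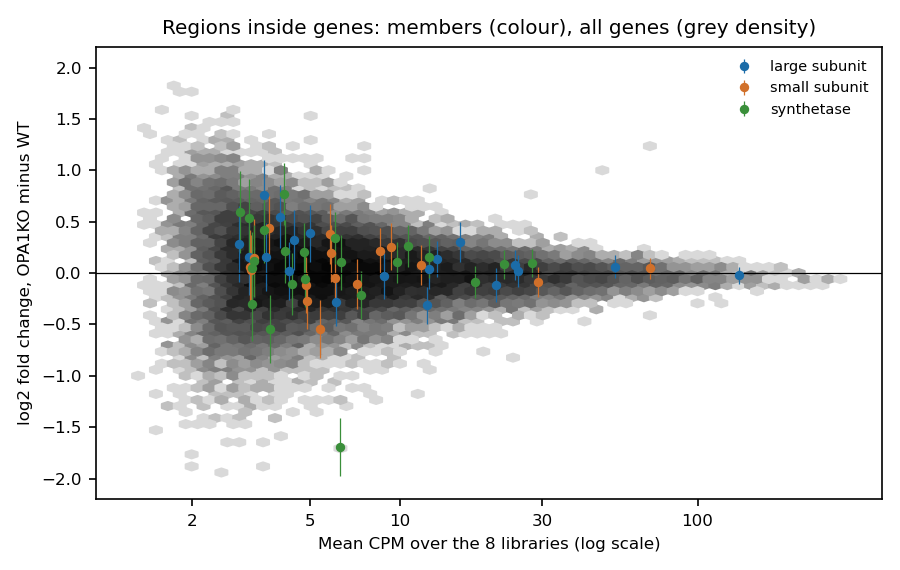
Log2 fold change (OPA1KO minus WT, bars for the standard error) against mean CPM (log axis) for the 57 internal member regions, coloured by gene group, over the density of all internal regions in grey (darker for more regions). The Rars2 region at −1.69 lies apart from the other members, and regions of low level spread most.

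**Figure D5:**
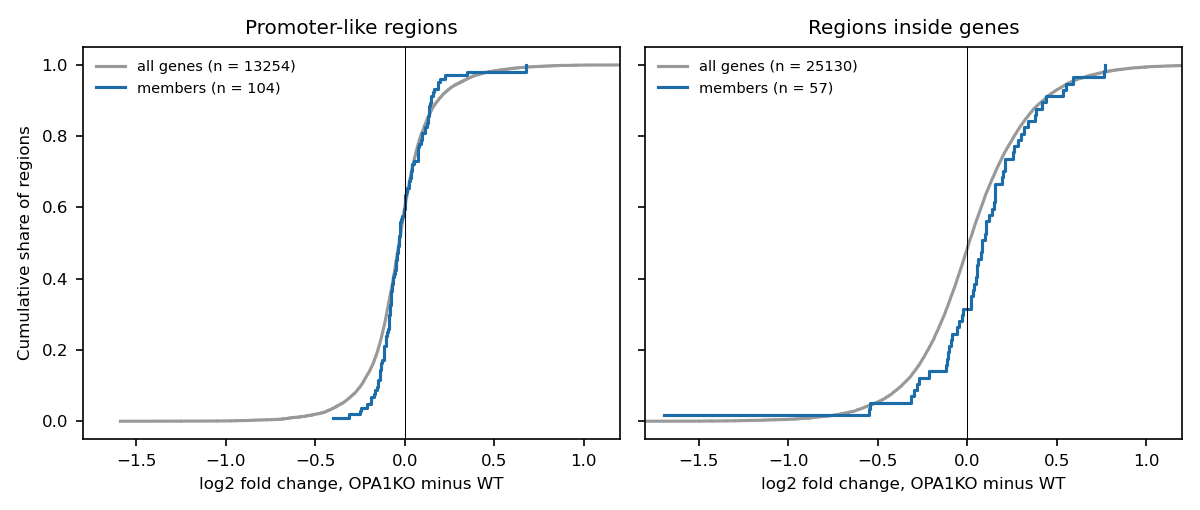
Cumulative share of regions by log2 fold change for member regions (blue) and all genes (grey). At promoter-like regions the 2 curves share a median of −0.03; at regions inside genes the member median is 0.08 and that of all genes 0.01.

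At the other genes of mitochondrial translation no promoter-like region passed the test either. The list held initiation, elongation and release factors, ribosomal proteins with other names, and assembly and tRNA modification factors, and 57 of its 59 symbols matched a gene model, 55 of which had promoter-like regions. Of 65 such regions 0 passed edgeR's test (3 at an unadjusted p under 0.05, all lower, where 3.21% of all promoter-like regions were lower at that p). In all 47 (72.3%) were lower and 18 higher, against 59.9% lower over all promoter-like regions, and the median log2 fold change was −0.05. Ybey, an RNase of ribosome assembly, was at 27.2 ± 3.58 CPM in the WT group and 21.8 ± 3.10 CPM in OPA1KO libraries (−0.31 ± 0.15), with edgeR adjusted p = 0.770. The release factor gene Mtrf1l gave −0.15 ± 0.07 and Tfb1m, whose product methylates the ribosomal RNA of the small subunit, −0.17 ± 0.08. The higher values with the smallest p were at 2 regions of Pus1, a pseudouridine synthase gene (0.72 ± 0.45 and 0.17 ± 0.16). They were followed by Mtfmt, which formylates the initiator methionine (0.17 ± 0.17), and by a region of the tRNA thiolation gene Trmu (0.11 ± 0.13). Another, weak region of Trmu was lower (−0.26 ± 0.33), at means of 3.85 CPM in the WT group and 3.24 CPM in OPA1KO libraries.

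Related gene families were set beside the members. At their promoter-like regions the median log2 fold change was −0.04 for 91 regions of cytosolic ribosomal protein genes (60 lower), −0.07 for 24 regions of other tRNA synthetase genes (18 lower) and −0.03 for 94 regions of nuclear genes of the respiratory complexes (61 lower), with 0 called in each by edgeR. At an unadjusted p under 0.05, 2, 0 and 2 were lower and 0 higher in each, beside 3.21% lower and 1.06% higher over all promoter-like regions. Levels per kb were 81.1, 74.6 and 72.2 CPM in these families against 55.3 in the members. At internal regions the median log2 fold change was 0.18 for 13 regions of other tRNA synthetase genes (8 higher). It was −0.02 for 21 regions of respiratory complex genes (9 higher) and −0.03 for 8 of cytosolic ribosomal protein genes (4 higher). The other genes of mitochondrial translation gave 0.02 over 26 tested regions (13 higher), and the 57 member regions 0.08 (39 higher). These differences were not tested.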

How the data were processed

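Accessible DNA was measured by ATAC-seq in 8 libraries. The deposited values are counts per region with no normalization, as whole numbers whose totals differ between libraries. The submitters' processing notes name the builds mm10 and GRCm38, and as tools bedtools, MACS2 (2.1.0.20150603), SAMtools, cutadapt (1.9) and Picard (1.65); their order and settings, any shift of read ends and the rule for the common regions are not given in the sources used here. Between 54.1% and 59.9% of the values in a library were even numbers.

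Regions were filtered with filterByExpr (659 removed), scaled with TMM factors and tested with edgeR 4.0.16 in R 4.3.3 (glmQLFit with robust estimation, glmQLFTest, 4 libraries per group, no covariates), with Benjamini-Hochberg adjustment over 59247 regions. The procedure was tested on simulated data. Standard errors are the fold change over the root of the F statistic. Alternatives used limma 3.58.1 and DESeq2 1.42.0. The cytosolic ribosomal list is by symbol, without the S6 kinases. Named regions were those called, those with the smallest p in each class and direction (6 promoter-like, 3 internal), the strongest and weakest promoter-like regions, the members with most regions and 10 genes fixed by role, of which 1 is not reported here; Mrpl13 below, the regions around Rars2 and partner genes were added after their values were seen. The members and lists were chosen with earlier results of these data known.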

Additional observations from a re-analysis of the deposited data

Results flagged for a closer look

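In 3 of the 74 groups of 4 values examined, 1 library lay far from the other 3 for the spread of its group; chance gives about 1 such group in 20. OPA1KO replicate 4 was at 7.22 CPM at the region of Mrpl55 with the lower level, where the other OPA1KO libraries were at 4.35 to 4.84 CPM. OPA1KO replicate 3 was at 127 CPM at Mrpl41, above 113 to 115 CPM in the other libraries of its group. WT replicate 2 was at 11.4 CPM at the Mrps34 region with the lower level per kb, above 8.43 to 8.66 CPM in the other WT libraries.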

How the results depend on the processing

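Over all regions, DESeq2 called 38, limma-voom 4 and the fit with a replicate block 1, against 12 in the edgeR fit; leaving out 1 library gave 1 to 68 (68 without WT replicate 2). The internal Rars2 call was lost with limma-voom and with the replicate block (0 internal member regions called, edgeR adjusted p = 0.0782 with the block), and leaving out 1 library gave 0 to 1 internal calls. Deviations of libraries with the same replicate number correlated at −0.13 to −0.01. No WT library correlated best with the OPA1KO library of its own number. OPA1KO libraries were not matched in turn, and so few libraries cannot show whether the numbers pair them. Promoter-like member regions called stayed at 0 under each alternative run. Those with an unadjusted p under 0.05 numbered 1 with annotated starts only and 1 to 3 when 1 library was left out, against 2. The promoter-like median stayed between −0.05 and −0.01, and with total counts it was −0.01, where that of all promoter-like regions was also −0.01.

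Of the named regions, 6 changed sign when 1 library was left out, none of them called. Over these fits the log2 fold change ran from −0.025 to 0.13 at Mrps18b, −0.089 to 0.0094 at Mrpl41, −0.0062 to 0.13 at Mrpl34, −0.065 to 0.016 at Mrpl17, −0.14 to 0.078 at Mrpl3 and −0.00017 to 0.30 at Mrpl11. Weak regions, with means of a few CPM and standard errors near 0.3, limit what could be detected inside genes.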
